A study of Mus musculus with 16 samples.

Results

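The interferon-induced transmembrane (IFITM) genes were followed here across input RNA, m6A peaks and YTHDF2-bound peaks of MC38 cells, a mouse colon tumour line. The set held 4 genes, Ifitm1, Ifitm2, Ifitm3 and Ifitm10, out of 55401 genes in the count table, and each was found by its symbol. The genes were selected on the input counts, with the difference between the genotypes already known: Ifitm1 was among the genes with the largest drops. The levels and fold changes of these 4 genes between the genotypes are therefore a description, with no test. Their peaks, sequences and genomic neighbours were not used in that choice.

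The groups were Ythdf2-KO cells, whose titles carry the tag gY2, and cells labelled WT, whose titles carry the tag gNC, read here as guide names. Both were grown in DMEM with serum, and the labels name no other allele or agent, and do not say whether the knockout line is 1 clone or whether replicates were separate cultures. Gene counts covered 3 Ythdf2-KO and 3 WT input libraries. The peak lists covered Ythdf2-KO m6A, WT m6A and YTHDF2 RNA immunoprecipitation (RIP) from cells labelled WT, with 1 list each and no replicate error.

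IFITM proteins are small membrane proteins that hinder the fusion of enveloped viruses with the host membrane. IFITM3 acts mainly in endosomes and lysosomes, and IFITM1 mainly at the cell surface. Several of their genes are induced by interferon, through receptors that activate transcription factors, which bind the interferon-stimulated response element. N6-methyladenosine (m6A) is a base modification of mRNA, typically found in the DRACH sequence (D is A, G or T, R is A or G, H is A, C or T). YTHDF2 binds m6A and promotes decay of the transcript.

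Total counts ran from 45441281 to 50959555 per library. Levels are given as CPM, the count scaled to the library's size. A count of 0 is compatible with up to 3 counts, which is 0.0582 to 0.0651 CPM here, for counting error only. The whole-gene count of Ythdf2 averaged 63.0 ± 4.27 CPM in Ythdf2-KO libraries and 61.2 ± 6.63 CPM in WT libraries (SD, n = 3 each), with an edgeR adjusted p of 0.809. Such a count includes exons outside an edited site and does not check the knockout, so the libraries are called KO-labelled and each direction rests on the labels. In a principal component analysis of all tested genes, KO-labelled replicate 1 lay nearer to the WT libraries than to its own group. On the leading axis (51.4% of variance) it scored -10.4, where the other KO-labelled libraries scored 64.0 and 63.2 and the WT libraries -39.2 to -38.6. Of 12 epithelial markers, 3 (Epcam, Krt18 and Cldn7) had no read in any library, and the summed level was 1.44 to 1.54 CPM in KO-labelled and 1.95 to 2.85 CPM in WT libraries. All 4 tested ones had a log2 fold change below 0 and 0 passed. In 3 of these 4 (75%), Krt7, Muc1 and Vil1, the KO-labelled values lay wholly below the WT values, where 16.2% of all tested genes did. The 21 leukocyte and endothelial markers summed to 54.8 to 132 CPM in KO-labelled and 70.5 to 89.9 CPM in WT libraries, mostly from the lysosomal gene Cd68. Of these, Adgre1, Cd8a and Ncr1 had no read in any library, and the pan-leukocyte marker Ptprc averaged 0.147 CPM in KO-labelled and 0.0507 CPM in WT libraries. Of 6 tested 4 had a log2 fold change below 0, 3 of them with no overlap (50% of those tested, against 16.2% of all tested genes). Cd3d fell, at 0.382 ± 0.141 CPM in KO-labelled and 1.11 ± 0.145 CPM in WT libraries (edgeR adjusted p = 0.0461). It was the 1 of the 6 that passed (16.7%), where 1.54% of all tested genes fell. The 11 fibroblast markers summed to 1504 to 2642 CPM in KO-labelled and 2118 to 2677 CPM in WT libraries, most of it Col3a1. Of 9 tested 7 had a log2 fold change below 0, and 3 of these, Dcn, Col1a2 and Lum, did not overlap (33.3% of those tested, against 16.2% of all tested genes). Dcn fell, at 33.2 ± 4.76 CPM in KO-labelled and 58.4 ± 8.82 CPM in WT libraries (edgeR adjusted p = 0.0355), while Col1a2 (log2 fold change -2.31) and Lum (-1.70) did not pass. Dcn was thus the 1 of the 9 that passed (11.1%), where 1.54% of all tested genes fell. Without KO-labelled replicate 1, 7 of the 9 were called lower and 1 higher (77.8% and 11.1%), where 16.1% and 19.3% of all genes were. The part of these marker differences in the levels below was not tested.

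Ifitm1, Ifitm2 and Ifitm3 lie together on mm10 chromosome 7 with Ifitm5 and Ifitm6. Ifitm2 (ENSMUSG00000060591.9) spans chr7:140954837-140955987 on the minus strand, Ifitm1 (ENSMUSG00000025491.14) spans chr7:140967221-140969825 on the plus strand, and Ifitm3 (ENSMUSG00000025492.6) spans chr7:141009586-141010770 on the minus strand. Ifitm10 (ENSMUSG00000045777.14) lies apart at chr7:142325837-142373753 on the minus strand. The coding sequence of Ifitm1 was identical to that of Ifitm2 at 81.4% and to that of Ifitm3 at 81.6% of aligned bases, and Ifitm2 and Ifitm3 matched at 79.4%. Ifitm10 was more distant, at 63.7%, 62.8% and 59.9% against Ifitm1, Ifitm2 and Ifitm3. Outside the set, Ifitm7 was closer to Ifitm1 than these, at 89.3% of aligned coding bases. On the reference transcripts, Ifitm1, Ifitm2 and Ifitm3 shared no exact run of 100 bases with each other. Shorter reads, or reads placed with mismatches, were not tested. No window of 100 bases on the Ifitm1 or Ifitm3 transcript occurred in a transcript of another gene. On Ifitm2, 34.9% of such windows did, none of them in another Ifitm gene, and they were shared with Gm45717, Gm8865 and Gm11951. Gm45717 is a gene model that runs through Ifitm5 and Ifitm2 on their strand, so some Ifitm2 reads may be counted there.

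The m6A peaks of the family are shown first as sequence, because each lay at the 5′ end of the reference transcript. The runs below are from the GENCODE transcripts, each read 5′ to 3′ inside a listed peak, with the DRACH match in capitals. For Ifitm1 and Ifitm3 they are the matches of the form GGAC followed by A, C or T, and for Ifitm2 the sole match. Their places are chr7:140968175-140968204 (Ifitm1, plus strand), chr7:140955955-140955984 (Ifitm2, minus strand) and chr7:141010586-141010615 (Ifitm3, minus strand).
Ifitm1: gcagcaggctccGGACTgcccagtttgaaa
Ifitm2: ggcgggtctacaGAACCaggatagcagcag
Ifitm3: gctgccagtggaGGACAgcccccaaactac
Counted from the first base of the start codon, the central A of the match lay at -67 in Ifitm1 and -55 in Ifitm2, both in the 5′ UTR, and at 44 in Ifitm3, in the coding sequence.

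Each m6A peak of Ifitm1, Ifitm2 and Ifitm3 began at the 5′ end of the reference transcript. For Ifitm1 that transcript was set by hand. It starts at chr7:140968040, inside a gene annotated from chr7:140967221, so the place of the Ifitm1 peak holds for that transcript only. In Ifitm3 the peak covered the first 207 of 678 bases, 125 of them the whole 5′ UTR and 82 coding, across the start codon. The KO-labelled and WT lists gave the Ifitm3 peak the same boundaries (chr7:141010564-141010770). The authors' score, read as a p-value, was 1.3e-96 for it in the KO-labelled list, at rank 2568 of 17428 peaks, and 5e-94 in the WT list, at rank 2662 of 19236. In Ifitm2 the peak covered the first 90 bases in the KO-labelled list (chr7:140955898-140955987) and the first 120 in the WT list (chr7:140955868-140955987), in both from the 5′ end across the start codon. Its score was 1e-25 in the KO-labelled list, at rank 8735 of 17428, and 2.5e-31 in the WT list, at rank 7535 of 19236. Ranks come from lists of unequal length, so they show no change.

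Ifitm1 had no peak in the KO-labelled list and 1 peak of 179 bases in the WT list, at chr7:140968036-140968214 with a score of 2e-37. It covered the first 175 bases of the reference transcript, all in the 5′ UTR of 216 bases, and ended before the start codon. Of the tested genes with a WT peak, 11.6% had no KO-labelled peak (1070 of 9241). Among those with a log2 fold change of -1 or lower this was 67.1% (108 of 161), and among those with a log2 fold change of 1 or higher it was 21.3% (32 of 150). Ifitm1 was in the first of these 2 classes, as the levels below show, so its missing peak came with a lower transcript level, and whether the one accounts for the other was not tested. Ifitm10 had no peak in any list.

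**Figure D1:**
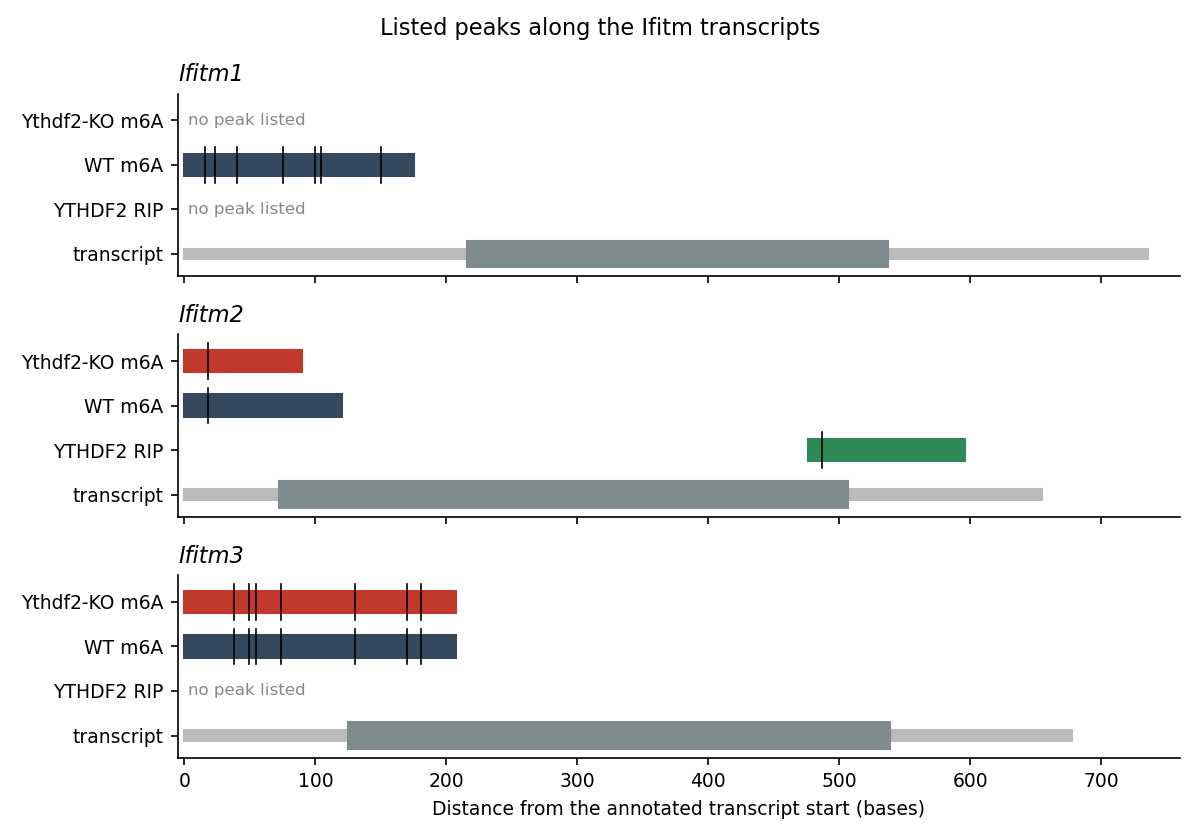
Peaks listed for Ifitm1, Ifitm2 and Ifitm3, drawn against distance in bases from the annotated transcript start. The thick grey bar is the coding sequence, coloured bars are peaks of each list, and vertical ticks are the A of DRACH matches inside them. The m6A peaks all start at the 5′ end of the transcript drawn, and the 1 RIP peak lies near the 3′ end of Ifitm2.

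A start at the 5′ end was uncommon among m6A peaks in general. Of peaks in protein-coding genes, 3.31% (550 of 16600) in the KO-labelled list and 3.23% (585 of 18133) in the WT list began within 10 bases of an annotated transcript start. Genes in which every peak did so made up 1.63% of marked coding genes in each list, and Ifitm2 and Ifitm3 in both lists and Ifitm1 in the WT list were among them. The start codon was covered by 7.28% of KO-labelled and 7.09% of WT peaks. Antibodies against m6A also bind m6Am, a methylated adenosine at the first transcribed base, and the lists do not separate them. The reference transcripts of Ifitm2 and Ifitm3 begin with A, and that of Ifitm1 begins with C, while the part of either mark in these peaks was not tested. The peaks held 7 of the 15 DRACH matches of the Ifitm3 transcript, 7 of the 18 of the Ifitm1 transcript and 1 of the 8 of the Ifitm2 transcript.

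In the YTHDF2 RIP list, Ifitm2 was the 1 of the 4 genes with a peak, of 120 bases at chr7:140954896-140955015 with a score of 4e-08. It covered the last 31 coding bases, stop codon included, and 89 bases of the 3′ UTR, and shared 0 bases with the m6A peak at the other end of the transcript. Ifitm1 and Ifitm3 had an m6A peak and no RIP peak. A RIP peak was thus listed for 1 of the 3 members that passed the count filter described below, a share near that of all tested genes, of which 34.3% had a RIP peak, 45% a KO-labelled m6A peak and 48.7% a WT m6A peak. Outside the 4 genes, Ifitm6 had a RIP peak of 60 coding bases with a score of 0.00015, at rank 21533 of 23372 in that list, and no m6A peak.

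The members' levels differed widely at the start. Per kilobase of annotated exon (RPKM, CPM divided by exon length), Ifitm3 was highest at 921 ± 18.8 RPKM in KO-labelled and 1026 ± 14.9 RPKM in WT libraries (SD, n = 3 each), which ranked it 32nd and 31st of 18942 genes. Ifitm2 followed at 445 ± 45 RPKM in KO-labelled and 561 ± 28.2 RPKM in WT libraries. Ifitm1 stood at 33.1 ± 18.8 RPKM in KO-labelled libraries, rank 2244, and 126 ± 2.36 RPKM in WT libraries, rank 542. The rest of the family was lower on the same scale. Ifitm6, a gene of the same cluster, had 3.77 ± 1.29 RPKM in KO-labelled and 12.3 ± 2.10 RPKM in WT libraries, and Ifitm5, known from bone-forming cells, had 0.666 ± 0.379 and 0.851 ± 0.422 RPKM in the same order. Ifitm10 and Ifitm7 stood at the bottom, and their ranges overlapped in both groups, so their order is not resolved, whereas every other neighbouring pair in the order had ranges that did not overlap.

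Ifitm1, the surface member, was the one with the large difference. It measured 59.9, 25 and 23.7 CPM in the KO-labelled libraries and 139, 135 and 138 CPM in the WT libraries. KO-labelled replicate 1 was more than double the other KO-labelled libraries, and it was still below every WT library, so the groups did not overlap. The mean was 36.2 ± 20.6 CPM in KO-labelled and 137 ± 2.58 CPM in WT libraries (SD, n = 3 each), a log2 fold change of -1.92 (SE 0.34). Each KO-labelled library held 43.6%, 18.2% and 17.2% of the WT mean. Without KO-labelled replicate 1 the log2 fold change was -2.50 (SE 0.06), which is the sole one of 11 alternative fits that moved it by more than the spread between replicates. In bulk RNA, fewer cells with the transcript and less transcript per cell cannot be told apart.

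Ifitm2, which acts in endosomal membranes, differed less. It measured 324, 285 and 266 CPM in the KO-labelled libraries and 346, 377 and 380 CPM in the WT libraries. The groups did not overlap, and the gap between the nearest libraries, KO-labelled replicate 1 and WT replicate 1, was narrower than the range within either group. The mean was 291 ± 29.5 CPM in KO-labelled and 368 ± 18.5 CPM in WT libraries, a log2 fold change of -0.34 (SE 0.09). Adding the reads of Gm45717, which themselves ran from 0.102 to 6.0 CPM in KO-labelled and from 0.175 to 8.84 CPM in WT libraries, left it at -0.34 (SE 0.09), an alternative chosen after seeing the data.

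Ifitm3, the most abundant member, differed least. It measured 633, 631 and 610 CPM in the KO-labelled libraries and 706, 695 and 686 CPM in the WT libraries. All KO-labelled libraries were below all WT libraries, and replicate 1 did not stand apart here. The gap between the nearest libraries, KO-labelled replicate 1 and WT replicate 3, was wider than the range within either group. The mean was 624 ± 12.7 CPM in KO-labelled and 695 ± 10.1 CPM in WT libraries, a log2 fold change of -0.16 (SE 0.06). This amounts to 89.8% of the WT mean, against 79.3% for Ifitm2 and 26.3% for Ifitm1.

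Ifitm10, whose function is little known, was barely detected. Its counts were 10, 0 and 9 in the KO-labelled libraries and 6, 12 and 9 in the WT libraries, or 0 to 0.194 CPM and 0.127 to 0.261 CPM. It was the 1 member of 4 that did not pass the filter on low counts. No fold is given for it, and 16.1% of the 100-base windows of its transcript are shared with the gene model Gm49369.

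Of the 3 members that passed the filter, 1 (Ifitm1) was past the edgeR adjusted p of 0.05 in the lower direction, where 1.54% of the 18969 tested genes were. All 3 had KO-labelled values that lay wholly below the WT values, which held for 16.2% of tested genes, and 33.8% did not overlap in one direction or the other. The edgeR adjusted p of Ifitm1 was not below 0.05 without the filter on low counts or with a replicate block. Nor was it in 5 of the 6 fits that left out a single library, the exception being that without KO-labelled replicate 1. Ifitm1 and Ifitm2 were past the threshold without KO-labelled replicate 1, where 16.1% of genes were. These counts use the contrast that was known when the genes were picked, and nothing is read from them. In the order of all fold changes, 0.785% of genes had a lower one than Ifitm1, 22.2% than Ifitm2 and 35.1% than Ifitm3.

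**Figure D2:**
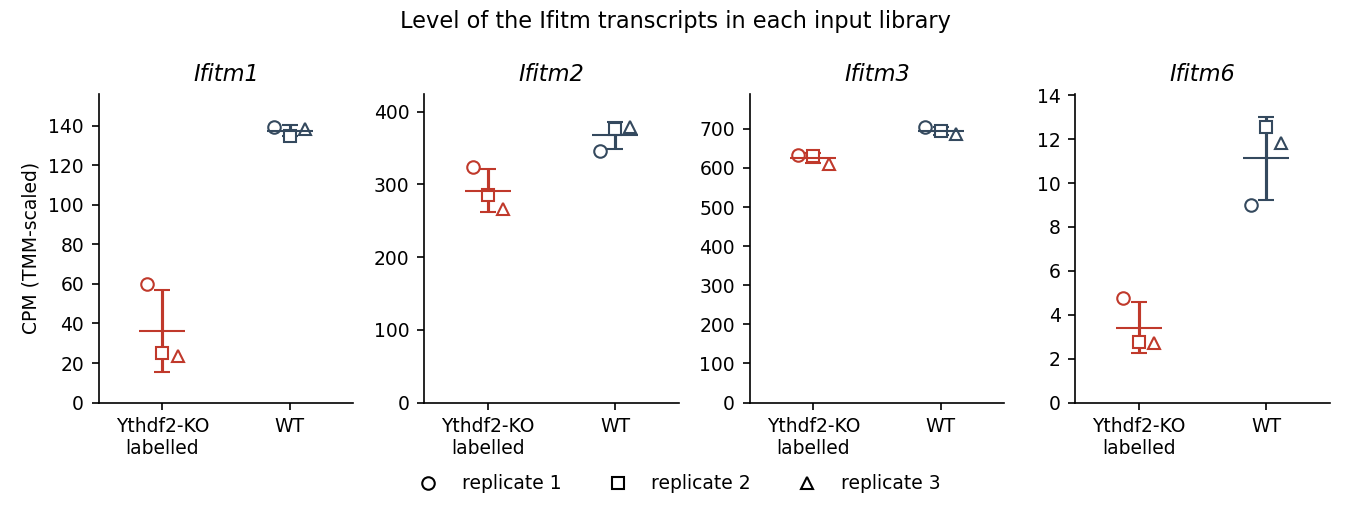
Level in CPM of Ifitm1, Ifitm2, Ifitm3 and Ifitm6 in each input library, KO-labelled on the left and WT on the right of each panel, with the mean and SD (n = 3 each). Ifitm1 and Ifitm6 show the wide gap and the higher KO-labelled replicate 1. Ifitm3 shows the smallest difference between the means relative to its level.

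The family's total level was less affected than that of Ifitm1. Summed over the 7 Ifitm genes it was 1403 ± 79.3 RPKM in KO-labelled and 1726 ± 15.9 RPKM in WT libraries (SD, n = 3 each). Ifitm1 made up 3.68%, 1.64% and 1.63% of that sum in the KO-labelled libraries and 7.47%, 7.08% and 7.31% in the WT libraries. Ifitm3 made up 62.7% to 67.6% in KO-labelled and 58.4% to 61.0% in WT libraries, so its share was higher while its own level was lower.

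Among the Ifitm genes outside the set, Ifitm6 fell in the KO-labelled libraries. It measured 4.76, 2.78 and 2.70 CPM in the KO-labelled libraries and 8.98, 12.6 and 11.8 CPM in the WT libraries. The groups did not overlap, and the KO-labelled libraries kept the order seen for Ifitm1, with replicate 1 highest. The log2 fold change was -1.70 (SE 0.26, edgeR adjusted p = 0.0293). Over 10 alternative fits the log2 fold change ran from -2.02 to -1.56 and the adjusted p from 2.43e-08 to 0.171, and with single libraries left out the call held in 1 of 6 fits, that without KO-labelled replicate 1. Ifitm5 averaged 0.510 ± 0.290 CPM in KO-labelled and 0.651 ± 0.323 CPM in WT libraries and did not pass (edgeR adjusted p = 0.677). Ifitm7, on chromosome 16, had 0 to 1 counts in KO-labelled and 1 to 4 counts in WT libraries. Of 8 other genes listed for the same protein family (dispanins), 2 were tested and neither passed: Trarg1 averaged 0.270 CPM in KO-labelled and 0.416 CPM in WT libraries, and Tmem91 0.684 and 0.986 CPM in the same order.

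The genes beside the family on chromosome 7 were compared as well. Within 200 kb of the start of a member lay 58 annotated genes outside the Ifitm family, of which 23 were tested. Of the tested ones, 19 lay around the cluster and 4 around Ifitm10. Ifitm5 and Ifitm6 also lie there and are not in these counts, and Ifitm6 fell, as given above. None of the 23 passed in either direction with edgeR, where 4.54% of all tested genes did. An unadjusted edgeR p below 0.05 was reached by 3 of the 23, and by 5596 of all 18969 tested genes. DESeq2 called 2 of 22 neighbours lower (9.09%), where it called 7.14% of all genes lower. The median log2 fold change of the neighbours was -0.10, against -0.01 over all tested genes. On one side of the cluster the nearest tested gene, apart from Gm45717, was Pgghg, which encodes a glucosidase of hydroxylysine-linked sugars. It measured 32.1, 17.5 and 20.3 CPM in the KO-labelled libraries and 32.0, 32.4 and 33.0 CPM in the WT libraries (-0.48 on the log2 scale, SE 0.21, edgeR adjusted p = 0.185), so replicate 1 lay with the WT libraries. On the other side the nearest was B4galnt4, a glycosyltransferase gene, at 15.0 ± 1.77 CPM in KO-labelled and 13.8 ± 0.523 CPM in WT libraries (edgeR adjusted p = 0.546). Without KO-labelled replicate 1, 4 neighbours were lower and 2 higher of 26 tested, 15.4% and 7.69%, where 16.1% and 19.3% of all genes were.

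**Figure D3:**
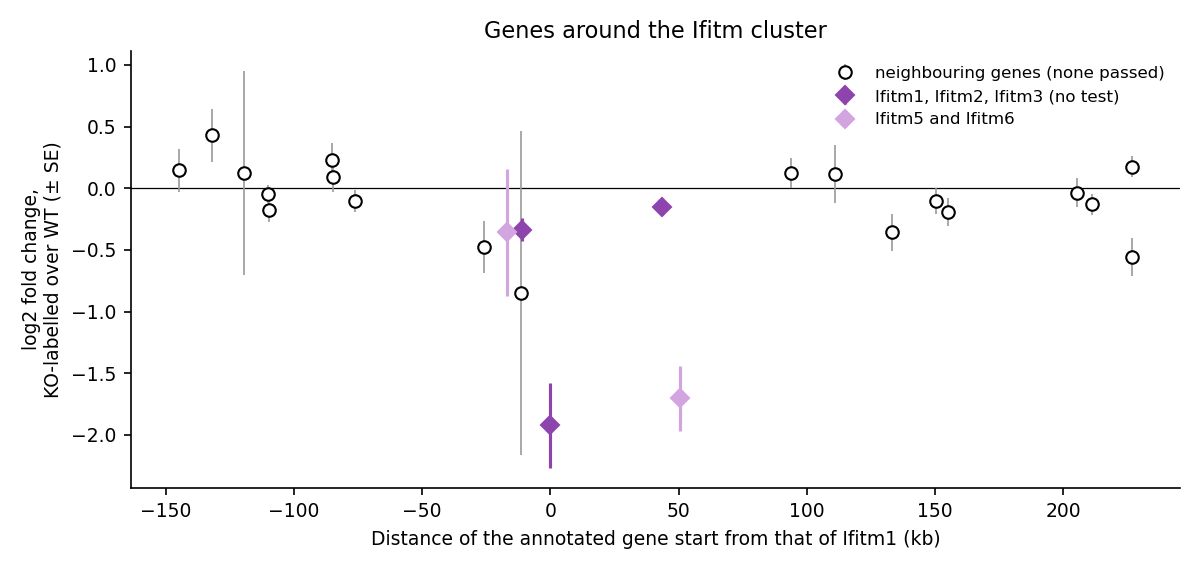
The log2 fold change (KO-labelled over WT, with its SE) of tested genes around the Ifitm cluster, against the distance in kb of the gene start from that of Ifitm1. Ifitm1 and Ifitm6 lie at -1.92 and -1.70, and no neighbouring gene outside the Ifitm family passed the test.

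The starts of the genes were compared for the interferon-stimulated response element, searched as GAAA, 2 bases of any kind and GAAA again, on both strands, in RefSeq promoter windows (GRCm38.p6) from 250 bases before to 50 after each gene start. The windows of Ifitm2 and Ifitm3 held it, and 3.44% of all 32851 windows did. Those of Ifitm1, Ifitm10, Ifitm5, Ifitm6 and Ifitm7 did not. The Ifitm6 window (chr7:141016843-141017142) lies inside the gene, after the start of its reference transcript at chr7:141017558. The Ifitm1 window (chr7:140967826-140968125) leaves out the first annotated base of that gene, chr7:140967221. Sequence before either start was not searched. The runs below show the exact matches, and for Ifitm1 and Ifitm6 the closest window, with the 10 bases of the match in capitals. The first Ifitm3 run precedes and partly overlaps the second.
Ifitm2: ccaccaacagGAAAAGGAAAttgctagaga
Ifitm3, first match: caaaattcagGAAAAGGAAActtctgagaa
Ifitm3, second match: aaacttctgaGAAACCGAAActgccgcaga
Ifitm1, closest: gggagctaaaGAATGTGCAAaacatcatcc
Ifitm6, closest: tttacaaacaGGAACAGAAAttttggagaa
They lie at chr7:140955988-140956017 (Ifitm2), chr7:141010723-141010752 and chr7:141010706-141010735 (Ifitm3), chr7:140967829-140967858 (Ifitm1) and chr7:141017072-141017101 (Ifitm6), on the strand of each gene.

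The closest Ifitm1 run differed from the searched letters at 2 places and the closest Ifitm6 run at 1. The search kept the first run found with the fewest differences and did not count ties. Neither run is therefore read as a response element. Both Ifitm3 matches lie after the RefSeq gene start and inside its m6A peak. Of 40 interferon-stimulated effector genes with a window 45% held the motif, and of 14 genes of IFITM regulators 0 did.

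The rest of the interferon response was compared through a list of 51 effector genes without the Ifitm genes. This list and those of signalling genes and regulators were chosen with earlier results of these data known, so their counts are a description. Of 49 tested, 6 fell and 1 rose in the KO-labelled libraries, 12.2% and 2.04%, where 1.54% and 2.99% of all tested genes did. Their median log2 fold change was -0.42, against -0.01 over all tested genes, and it was below 0 for 43 of the 49. The KO-labelled values lay wholly below the WT values for 26 (53.1%) and wholly above for 2, where 16.2% of all tested genes lay wholly below and 33.8% did not overlap in one direction or the other. The largest falls that passed were in Ddx60, a helicase linked to viral RNA sensing, at 28.7, 20.6 and 20.8 CPM in KO-labelled and 50.5, 41.1 and 41.4 CPM in WT libraries (-0.92 on the log2 scale, SE 0.16, edgeR adjusted p = 0.0341), and in Ifi44 (-0.87), Herc6, a ligase that conjugates ISG15 in mice (-0.72), Dtx3l (-0.68) and the ISG15 deconjugase Usp18 (-0.65). All 5 had KO-labelled replicate 1 highest within its group, as in Ifitm1. The other gene that fell, Oas3, had replicate 1 lowest within its group. It measured 93.2, 96.1 and 98.5 CPM in KO-labelled and 138, 120 and 122 CPM in WT libraries (-0.40 on the log2 scale, SE 0.08, edgeR adjusted p = 0.0381). Ifit2, which binds viral RNA, rose, at 50.7, 56.2 and 55.6 CPM in KO-labelled and 37.1, 36.0 and 36.3 CPM in WT libraries (0.57 on the log2 scale, SE 0.08, edgeR adjusted p = 0.0227).

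The 3 most abundant effector genes did not pass. The surface protein Bst2, which tethers budding virus, averaged 437 ± 18.1 CPM in KO-labelled and 457 ± 20.2 CPM in WT libraries (edgeR adjusted p = 0.568), and the ubiquitin-like modifier Isg15 234 ± 22.7 and 242 ± 23.8 CPM (adjusted p = 0.780). Lgals3bp, a secreted glycoprotein, averaged 333 ± 29.1 and 310 ± 43.4 CPM in the same order (adjusted p = 0.590). Their log2 fold changes lay between -0.07 and 0.10, on either side of 0, beside -0.16 for Ifitm3 and -1.92 for Ifitm1. The calls in this list, like those over all genes, rest on the libraries. Without KO-labelled replicate 1, 30 were lower and 3 higher (61.2% and 6.12%), where 16.1% and 19.3% of all genes were. With any other single library left out edgeR called 0 of the 49, with 17 to 25 below an unadjusted p of 0.05. Those fits called 0 to 93 of all 19469 to 19733 genes tested, with 3457 to 5096 below an unadjusted p of 0.05.

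**Figure D4:**
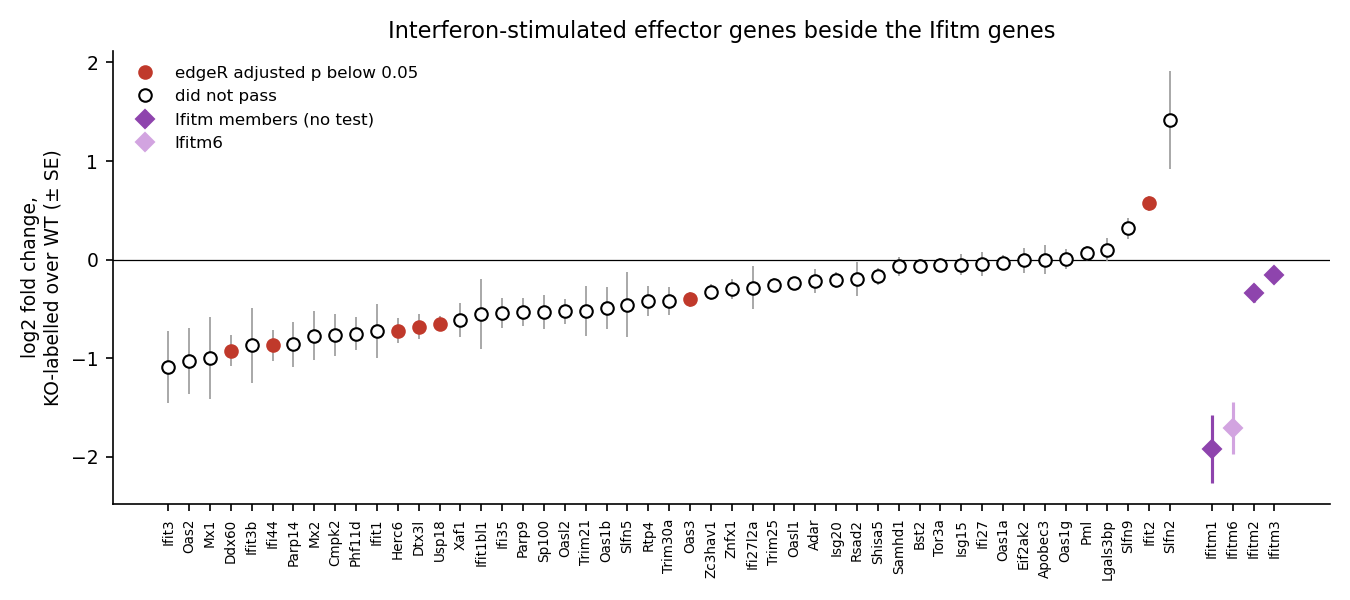
The log2 fold change (KO-labelled over WT, with its SE) of 49 tested interferon-stimulated effector genes, in rising order, beside Ifitm1, Ifitm6, Ifitm2 and Ifitm3. Filled red points passed the edgeR adjusted p of 0.05. Ifitm1 at -1.92 and Ifitm6 at -1.70 lie below every effector gene shown.

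Genes that carry the interferon signal were mixed. Of 23 tested, 2 fell and 1 rose, 8.7% and 4.35%, where 1.54% and 2.99% of all tested genes did, with a median log2 fold change of 0.01. The transcription factor Irf7 fell, at 23.2, 17.6 and 19.4 CPM in KO-labelled and 35.7, 32.9 and 30.7 CPM in WT libraries (-0.72 on the log2 scale, SE 0.13, edgeR adjusted p = 0.0344), and Usp18, also an inhibitor of the receptor, is the other fall. The receptor chain Ifnar1 rose, averaging 58.9 ± 4.78 CPM in KO-labelled and 43.5 ± 3.33 CPM in WT libraries (0.44 on the log2 scale, SE 0.10, adjusted p = 0.0497). The transcription factor Stat2 averaged 168 ± 25.2 CPM in KO-labelled and 239 ± 18.6 CPM in WT libraries (log2 fold change -0.51, edgeR adjusted p = 0.0543) and did not pass. Nor did the kinase Jak1, at 268 ± 35.4 CPM in KO-labelled and 245 ± 15.1 CPM in WT libraries (0.13, edgeR adjusted p = 0.451). Without KO-labelled replicate 1, 7 were higher and 7 lower (30.4% each), where 19.3% and 16.1% of all genes were. With any other single library left out edgeR called 0 of the 23, with 6 to 9 below an unadjusted p of 0.05. Those fits called 0 to 93 of all 19469 to 19733 genes tested, with 3457 to 5096 below an unadjusted p of 0.05.

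Proteins that act on IFITM proteins were compared as the last list, of 14 genes. Of 13 tested 1 fell and none rose, 7.69% in the lower direction, where 1.54% of all tested genes fell and 2.99% rose, with a median log2 fold change of 0.16. The gene that fell was Cd81, a tetraspanin whose protein is found in a surface complex with IFITM1 in human lymphocytes. It measured 151, 147 and 141 CPM in the KO-labelled libraries and 201, 207 and 213 CPM in the WT libraries (-0.50 on the log2 scale, SE 0.07, edgeR adjusted p = 0.0227), with replicate 1 close to the other KO-labelled libraries, unlike in Ifitm1. The ubiquitin ligase Nedd4, which marks human IFITM3 for turnover, averaged 645 ± 62.9 CPM in KO-labelled and 740 ± 29.9 CPM in WT libraries and did not pass (adjusted p = 0.173). Nor did the ATPase Vcp, at 348 ± 25.4 and 380 ± 33.7 CPM, or the tetraspanin Cd9, at 404 ± 29.8 and 361 ± 17.1 CPM in the same order (adjusted p = 0.385 and 0.228). Cd81 kept its call without KO-labelled replicate 1 and without WT replicate 1. With each of the other 4 libraries left out edgeR called 0 of this list, with 2 to 5 below an unadjusted p of 0.05. Those 4 fits called 0 to 5 of all 19469 to 19733 genes tested, with 3457 to 4011 below an unadjusted p of 0.05. Without KO-labelled replicate 1, 4 were higher and 3 lower, where 19.3% and 16.1% of all genes were.

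Marks and binding in these lists set the family in context. Of the 49 tested effector genes 71.4% had a WT m6A peak and 59.2% a RIP peak. Of the 23 signalling genes 73.9% had each, and of the 13 regulators of IFITM proteins 84.6% and 46.2% had them. Over all tested genes the shares were 48.7% and 34.3%. The lists were not matched to all tested genes for transcript level, and the part of level in these shares was not tested.

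The genes whose profile over the 6 libraries was closest to that of Ifitm1 were found by the root mean square difference of log2 CPM centred on each gene's mean, among 11686 protein-coding genes with a mean of at least 1 CPM. The 8 closest were Olfr56 (0.12), Gm2381 (0.15), Cd48 (0.15), Gm17067 (0.17), Plin4 (0.19), Ifi47 (0.21), Trpm6 (0.21) and Col6a2 (0.22), in log2 units. Olfr56 and Ifi47, an interferon-induced GTPase gene, overlap on the genome and may share reads. Cd48, a ligand of immune receptors, measured 1.90, 0.853 and 0.957 CPM in the KO-labelled libraries and 6.21, 4.93 and 5.06 CPM in the WT libraries. Col6a2, a chain of collagen VI, measured 257, 76.4 and 82.9 CPM in the KO-labelled libraries and 515, 388 and 387 CPM in the WT libraries. In both, as in Ifitm1, KO-labelled replicate 1 was highest of its group and below every WT library. The 8 closest to Ifitm3 lay within 0.015 to 0.030 of it: Chmp2a, a subunit of the ESCRT-III membrane scission complex, Snx11, Tmbim1, Plekhj1, Ghitm, Septin8, Cul2 and Cept1. Chmp2a measured 164, 167 and 159 CPM in the KO-labelled libraries and 182, 183 and 178 CPM in the WT libraries. None of these 16 genes is in the 3 interferon and regulator lists. The libraries form 2 groups, so closeness in profile includes the difference between them.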

How the data were processed

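The authors deposited raw counts of each gene in 6 input libraries, and 3 peak lists whose score was read as a p-value because all deposited values lay between 0 and 0.003. Per the submitters' processing notes, HISAT2, HOMER, ChIPseeker and mm10 were used, in roles not stated. The tool that counted reads, the strand it assumed and the program behind the peaks were not given in the sources used here. Of 55401 genes, 55141 were found in GENCODE M21 (GRCm38), which gave positions, exon lengths and transcripts. Columns of other samples numbered 0.

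The KO-labelled and WT inputs were compared in edgeR 4.0.16 (R 4.3.3) by its quasi-likelihood test, with TMM factors, the filterByExpr filter and Benjamini-Hochberg adjustment over 18969 genes at a threshold of 0.05. The code was tested on simulated data. CPM values use TMM-scaled sizes, ± is the SD, and SE is the size of the log2 fold change divided by the square root of F. A p-value here measures only spread among libraries, possibly technical, since the labels do not say that replicates were separate cultures. Closeness of profiles used log2 CPM with a prior count of 2. The alternatives were DESeq2 1.42.0, RLE factors, no filter, total counts, a replicate block and each library left out. Peaks were compared by at least 1 shared exonic base on 1 strand.

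The members and lists were chosen with earlier results of these data known. Named genes were up to 6 called members of each list with the largest change, its 3 most abundant genes, and the nearest tested neighbours, with Oas3 added as the remaining fall among effector genes. A gene that this rule names is not reported here.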

Additional observations from a re-analysis of the deposited data

How the results depend on the processing

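The members' log2 fold changes kept their sign under all 11 alternatives, at -2.50 to -1.69 for Ifitm1, -0.42 to -0.27 for Ifitm2 and -0.20 to -0.14 for Ifitm3, the lowest value for Ifitm3 coming from total counts without TMM factors. Counts of called genes moved a lot. Over all genes edgeR called 861, DESeq2 called 3293, no filter gave 111, the replicate block 71, and leaving out single libraries 0 to 6926. Effector genes called numbered 7, with 23 by DESeq2, 2 without the filter, 4 with the replicate block and 0 to 33 with single libraries left out. Signalling genes numbered 3, with 9, 1, 0 and 0 to 14 in the same order. The regulators numbered 1, with 2 by DESeq2, 0 with the block and 0 to 7 with libraries left out, and the neighbours 0, with 2 by DESeq2 and 0 to 6. The cause of these moves was not tested. With single libraries left out, the log2 fold change of Ifitm5 ran from -0.90 to 0.10 and that of Isg15 from -0.13 to 0.022, with no call on either side of 0. The positive values came without WT replicate 3 for Ifitm5, and for Isg15 without WT replicate 1 (0.022) or KO-labelled replicate 2 (0.007). Same-numbered libraries correlated at 0.05, 0.11 and 0.05 in their deviations from the group means, too little to pair them, though each correlated best with its own number. The count of members with a shared m6A peak stayed at 2 with an overlap of 50% of the shorter peak and with scores of at most 1e-05. Peak lists have no replicates, and the depth behind them is unknown here.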
